A study of Homo sapiens with 24 samples.

Results

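The genes described are the MHC class I heavy chains HLA-B, HLA-C, HLA-E and HLA-F, their light chain B2M, the peptide transporter subunits TAP1 and TAP2, the loading chaperone TAPBP (tapasin) and the transactivator NLRC5. They were taken as a list of named genes, chosen with earlier results of these data known. They were read by gene symbol, with the probe set of the highest mean signal per gene. HLA-B was not analysed here, so 8 of the 9 listed genes are described, out of 17687 genes on the arrays.

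RNA came from ES8, an established human Ewing sarcoma cell line, and from 1 derivative of it, ES8-1F2, in which the SLFN11 gene had been knocked out with CRISPR/Cas9. SLFN11 is a nuclear protein that acts on stressed replication forks. Parental and knockout cells were given gamma radiation (2 Gy) or none (0 Gy), and RNA was taken after 4 h or 24 h. This gives 8 groups (parental or knockout, 0 Gy or 2 Gy, 4 h or 24 h) of 3 arrays each, 24 Affymetrix arrays in all. All values are log2 signals, in which a difference of 1 is a doubling. The knockout is represented by 1 derivative line, so the effect of losing SLFN11 and any other difference between this derivative and the parental culture cannot be told apart. The labels number the replicates without naming separate cultures, so a p-value here measures the spread of the arrays in a group, and that spread may be only technical.

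Class I molecules show peptides from inside the cell to CD8+ T cells. The proteasome makes the peptides, TAP1 and TAP2 pump them into the endoplasmic reticulum, and tapasin holds an empty heavy chain with B2M next to the transporter until a peptide fits. HLA-C presents peptides and also binds killer cell immunoglobulin-like receptors, HLA-E binds the NKG2A and NKG2C receptors of natural killer cells, and HLA-F is a less studied non-classical heavy chain. NLRC5 and interferon-induced factors act on class I promoters, and low surface class I is a known trait of Ewing sarcoma.

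The promoters of these genes were searched for short elements. Those of 5 measured members are shown, 4 that were called between the lines (HLA-C, B2M, TAP2 and TAPBP) and HLA-F, which was not. RefSeq promoter entries (GRCh38.p14, windows of 300 bases) matched 7 of the 9 listed genes. Each line gives the 250 bases before the start, 5′ to 3′ on the gene's own strand, with matches in capitals (a match on the other strand shows as its reverse complement, such as CCAAT for ATTGG). The 4 patterns searched for on both strands were AANNGAAA, the core bound by interferon regulatory factors (IRF), TGACG, the core of the X2 box, ATTGG, the inverted CCAAT of the Y box, and GGGGATTC, a site of the NF-kB type from the class I enhancer A.
HLA-C: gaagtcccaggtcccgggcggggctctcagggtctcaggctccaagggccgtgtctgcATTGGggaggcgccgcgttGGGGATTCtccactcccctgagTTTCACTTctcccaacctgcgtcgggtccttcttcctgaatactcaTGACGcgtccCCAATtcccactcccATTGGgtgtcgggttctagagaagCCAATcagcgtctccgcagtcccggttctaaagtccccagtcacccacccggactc
HLA-F: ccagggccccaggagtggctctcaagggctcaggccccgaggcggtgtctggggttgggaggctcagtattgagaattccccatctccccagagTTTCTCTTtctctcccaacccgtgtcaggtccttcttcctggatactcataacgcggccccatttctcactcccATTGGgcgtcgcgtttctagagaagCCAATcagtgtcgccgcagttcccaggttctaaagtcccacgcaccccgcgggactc
B2M: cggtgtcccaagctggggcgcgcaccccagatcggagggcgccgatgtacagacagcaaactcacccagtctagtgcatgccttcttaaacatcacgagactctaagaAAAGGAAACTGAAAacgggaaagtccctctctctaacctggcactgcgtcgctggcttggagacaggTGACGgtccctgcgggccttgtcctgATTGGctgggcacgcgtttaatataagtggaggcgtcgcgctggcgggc
TAP2: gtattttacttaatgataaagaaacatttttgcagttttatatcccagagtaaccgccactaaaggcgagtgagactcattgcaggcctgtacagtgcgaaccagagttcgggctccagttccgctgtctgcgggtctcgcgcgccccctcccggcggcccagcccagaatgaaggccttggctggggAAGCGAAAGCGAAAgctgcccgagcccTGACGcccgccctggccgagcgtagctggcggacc
TAPBP: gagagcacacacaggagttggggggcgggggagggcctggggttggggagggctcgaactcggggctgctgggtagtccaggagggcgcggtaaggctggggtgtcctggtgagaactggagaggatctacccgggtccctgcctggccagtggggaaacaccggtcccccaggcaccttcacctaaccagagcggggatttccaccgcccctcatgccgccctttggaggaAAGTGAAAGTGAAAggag

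These stretches lie at chr6:31272093-31272342 on the minus strand (HLA-C), chr6:29723184-29723433 on the plus strand (HLA-F), chr15:44711267-44711516 on the plus strand (B2M), chr6:32838740-32838989 on the minus strand (TAP2) and chr6:33314079-33314328 on the minus strand (TAPBP). HLA-C held all 4 patterns, with the IRF core beginning 151 bases before the start, TGACG at 105, GGGGATTC at 173 and ATTGG at 192, 95, 80 and 56. HLA-F held the IRF core at 156 and ATTGG at 82 and 57, without TGACG or GGGGATTC in this window. B2M held IRF cores at 142 and 136, TGACG at 75 and ATTGG at 49. TAP2 held IRF cores at 62 and 56 and TGACG at 35, and TAPBP held only IRF cores, at 18 and 12. In B2M, TAP2 and TAPBP the IRF cores overlap each other. Of 35116 RefSeq promoter windows of the same length, 22.8% hold AANNGAAA, 24.6% TGACG, 34.6% ATTGG and 0.888% GGGGATTC, so that GGGGATTC is the rare pattern and the other patterns are common. The HLA-C and HLA-F windows were 80.3% identical, and each was between 46.3% and 54.3% identical to those of B2M, TAP2 and TAPBP.

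SLFN11 signal was 8.30 ± 0.18 (SD, n = 12) in parental and 6.83 ± 0.26 (SD, n = 12) in knockout arrays, without overlap. The lower signal follows the labels, but it was still above background on all 12 knockout arrays, and the arrays do not read protein. All 14 measured Ewing sarcoma markers were above the background level on all 24 arrays. On average 7 of them were called higher in knockout cells (PRKCB by 1.02) and 4 lower (GLI1 fell by 0.92), beside 15.8% and 14.6% of all genes. Background is the 95th percentile of 612 negative control probe sets on each array, 3.461 to 3.808. Of the marker lists of other cell types, 4 of 10 blood, 3 of 8 endothelial, 3 of 7 epithelial and 4 of 7 fibroblast genes were above background on all arrays. The mean signal of the blood list was 3.70 to 4.09 in parental and 3.55 to 3.90 in knockout arrays. Of that list CD14, CD74, NKG7 and CSF1R were above background on every array, and LYZ and MS4A1 on none. Only CD3E of the blood list was called between the lines (it fell by 0.30 in knockout cells). Its signals were near or below background, above it on 4 parental arrays and 1 knockout array. Of the endothelial list 1 gene was called higher, of the epithelial list 1 lower, and of the fibroblast list 2 higher and 2 lower. The part of such genes in the results was not tested. The replicate 2 arrays of irradiated parental cells at 4 h and 24 h had the narrowest signal range. Differences between the lines that lose their call, or move by a large share, without these 2 arrays are given with and without them.

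Most of the 8 measured members read higher in the knockout line, and none was called lower. Averaged over the 4 conditions of dose and time, 5 of the 8 members were called higher, which means a p from limma under 0.05 after Benjamini-Hochberg adjustment for all genes. They were HLA-E (by 0.76), TAP2 (0.51), TAPBP (0.31), HLA-C (0.31) and B2M (0.21), while HLA-F (0.08) and NLRC5 (-0.03) were not called and TAP1 was close to background. In this comparison 15.8% of all genes were called higher, 14.6% lower and 30.4% in either direction. The median difference of the members was 0.27, beside -0.02 over all genes. As the members were chosen with earlier results known, their counts and medians beside all genes, here and below, are a description and not a test. Without the 2 narrow arrays the call of HLA-C is lost (0.23, adjusted p = 0.0554) and the other 4 genes are still called.

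**Figure D1:**
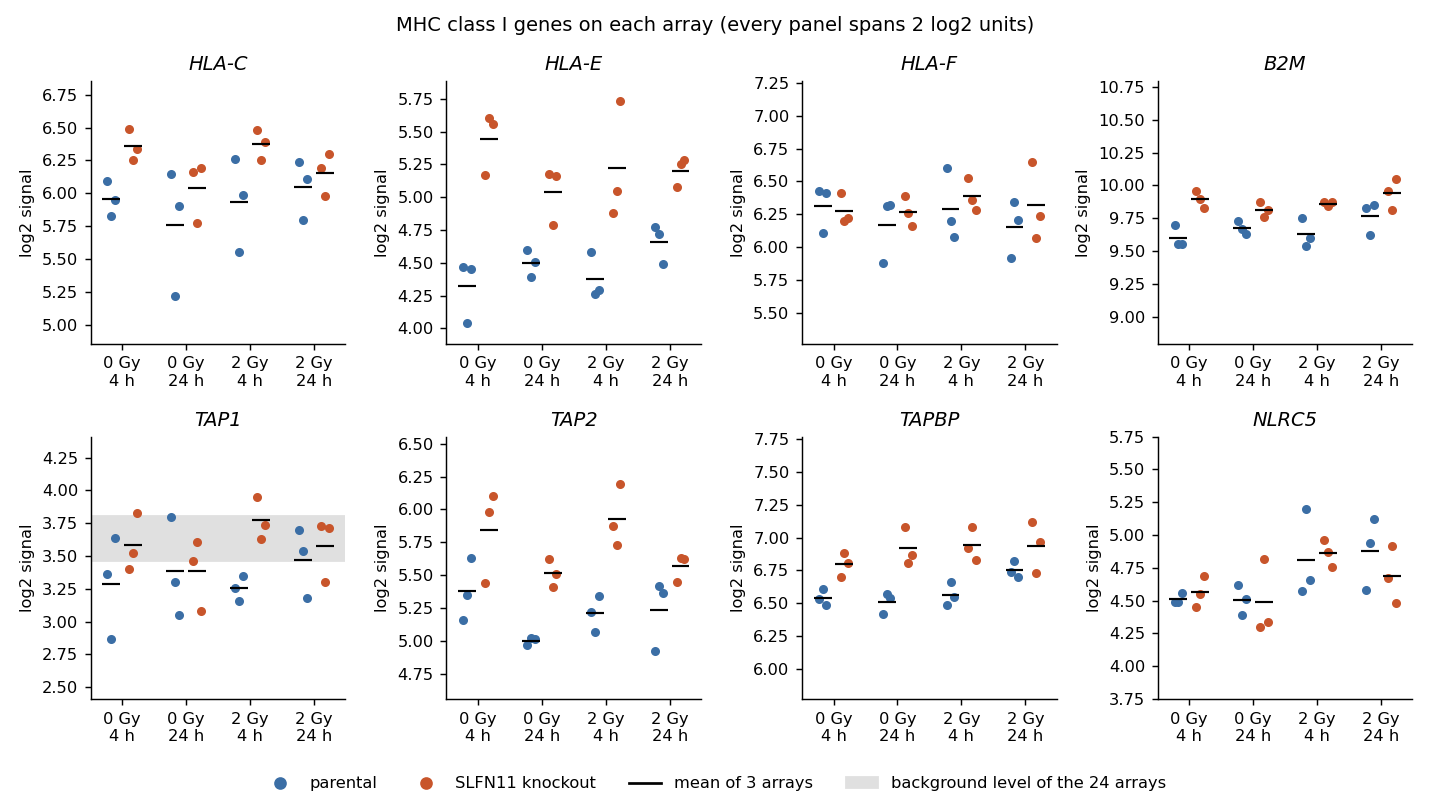
Log2 signal (y axis) of the 8 measured class I genes on each of 24 arrays, by dose and time (x axis), with parental cells in blue and SLFN11 knockout cells in orange; black lines are means of 3 arrays, each panel spans 2 log2 units, and the grey band in the TAP1 panel is the range of the background level, 3.461 to 3.808. HLA-E is the panel in which all 12 knockout arrays lie above all 12 parental arrays.

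By condition, between 0 and 4 members passed the test. Without irradiation 2 of 8 members were called higher at 4 h (HLA-E and B2M), against 6.27% of all genes called higher and 5.50% lower, and 2 at 24 h (TAP2 and TAPBP), against 6.47% higher and 5.09% lower. After 2 Gy, 4 members were called higher at 4 h (HLA-E, B2M, TAP2 and TAPBP), against 6.87% higher and 5.13% lower, and 0 at 24 h, against 6.29% higher and 5.68% lower. At 24 h after 2 Gy, 2 members had an unadjusted p below 0.05 (HLA-E and B2M), and 7 of the 8 differences were still above 0. The members' median was 0.30 and 0.21 without irradiation at 4 h and 24 h, and 0.40 and 0.17 after 2 Gy, beside medians of all genes between -0.02 and 0.00. No member's difference between the lines changed with time by the test of that change (lowest adjusted p = 1.00 at either dose), so a smaller difference at 24 h was not shown.

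With the replicate number as a block, in the 2 conditions in which same-numbered arrays of the lines deviated together over all genes, 4 members were called at 0 Gy and 4 h and 2 at 2 Gy and 24 h. The block added HLA-C (adjusted p = 0.0347) and TAP2 (0.0399) at 0 Gy and 4 h. At 2 Gy and 24 h it added HLA-E (0.0401) and B2M (0.0444). At 2 Gy and 4 h the lowest correlation of same-numbered arrays was 0.082 over all genes and 0.123 over genes above background, and there the block gave 5 calls, with HLA-C added (0.0206).

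**Figure D2:**
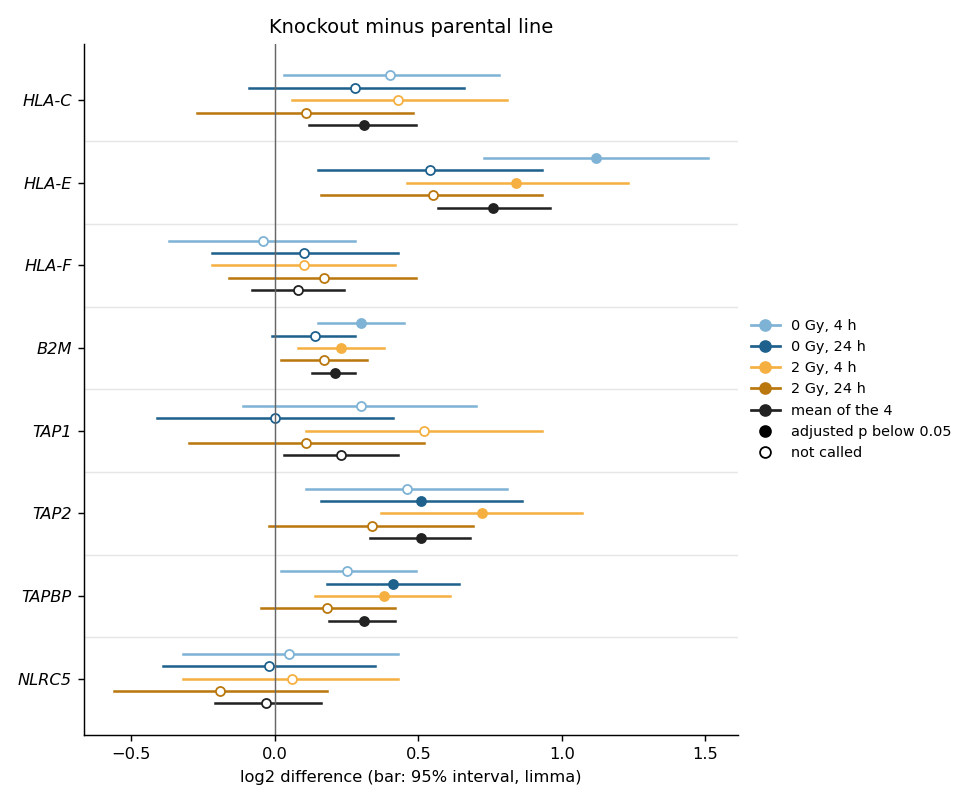
Knockout minus parental log2 difference (x axis) of each class I gene (y axis) in the 4 conditions of dose and time (colours) and on average (black), with 95% intervals from limma; filled points have an adjusted p below 0.05. The 5 averages of HLA-C, HLA-E, B2M, TAP2 and TAPBP are filled and lie between 0.21 and 0.76.

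Among the heavy chains, HLA-E differed most. In parental cells it read 4.04, 4.45 and 4.47 at 0 Gy and 4 h, 4.39, 4.51 and 4.60 at 0 Gy and 24 h, 4.26, 4.29 and 4.58 at 2 Gy and 4 h, and 4.49, 4.72 and 4.77 at 2 Gy and 24 h. In knockout cells the same conditions read 5.17, 5.56 and 5.60, then 4.79, 5.16 and 5.18, then 4.88, 5.05 and 5.73, and 5.08, 5.25 and 5.28. Every knockout array (4.79 to 5.73) thus read above every parental array (4.04 to 4.77), and the highest parental value is just under the lowest knockout value. HLA-E was the only member whose 12 arrays of one line lay apart from the 12 of the other, which held upward for 3.22% of all genes. The difference was 1.12 (SE 0.19, adjusted p = 5.69e-05) at 0 Gy and 4 h, a 2.18-fold higher signal. It was 0.84 (SE 0.19, adjusted p = 0.00203) at 2 Gy and 4 h. At 24 h it was 0.54 (adjusted p = 0.062) without and 0.55 (0.0588) with irradiation, both short of the threshold. Of 11 other ways of processing, which moved these 2 differences to 0.59 at most, 5 gave a call without irradiation and 7 with it. The 24 h value without irradiation was called when the knockout array of replicate 2 was left out (0.67, adjusted p = 0.0368).

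HLA-C was higher in knockout cells on average over the conditions, and in no single one without the replicate block, which gave a call at 0 Gy and 4 h (adjusted p = 0.0347) and at 2 Gy and 4 h (0.0206). Parental arrays read 5.83, 5.95 and 6.09 at 0 Gy and 4 h, 5.22, 5.90 and 6.15 at 0 Gy and 24 h, 5.55, 5.99 and 6.26 at 2 Gy and 4 h, and 5.80, 6.11 and 6.24 at 2 Gy and 24 h. Knockout arrays read 6.25, 6.34 and 6.49, then 5.77, 6.16 and 6.19, then 6.25, 6.39 and 6.48, and 5.98, 6.19 and 6.30. The groups were apart only at 0 Gy and 4 h, and the lowest array in each of the 8 groups was that of replicate 2. The differences in that order were 0.40, 0.28, 0.43 and 0.11, with adjusted p-values from 0.14 to 0.831, and the average of 0.31 had a 95% interval of 0.12 to 0.49 (adjusted p = 0.0103). Without the 2 narrow arrays the difference was 0.24 at 2 Gy and 4 h and -0.02 at 2 Gy and 24 h. Classical class I genes are close in sequence, and whether the HLA-C probe set also reads RNA of other heavy chains was not tested.

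HLA-F was not called in any condition. It lay between 5.88 and 6.60 in parental (median 6.26) and between 6.07 and 6.65 in knockout arrays (median 6.27). Its average difference of 0.08 has a 95% interval of -0.08 to 0.24 (adjusted p = 0.497), which holds the difference measured for B2M but not those of HLA-C, TAP2, TAPBP or HLA-E. Whether the line difference of HLA-F differs from theirs was not tested. Without the 2 narrow arrays its difference went from 0.10 to 0.05 at 2 Gy and 4 h and from 0.17 to 0.26 at 2 Gy and 24 h.

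B2M, which pairs with all class I heavy chains, had a small difference and tight replicates. Parental arrays read 9.55, 9.55 and 9.70 at 0 Gy and 4 h, 9.63, 9.67 and 9.73 at 0 Gy and 24 h, 9.54, 9.60 and 9.75 at 2 Gy and 4 h, and 9.62, 9.83 and 9.85 at 2 Gy and 24 h. Knockout arrays read 9.83, 9.90 and 9.96, then 9.76, 9.81 and 9.87, then 9.84, 9.87 and 9.87, and 9.81, 9.96 and 10.05. The lines were apart in all conditions but 2 Gy and 24 h. The difference was 0.30 (SE 0.07, adjusted p = 0.00463) at 0 Gy and 4 h, a 1.23-fold higher signal, and 0.14, 0.23 and 0.17 in the other conditions, called at 2 Gy and 4 h (adjusted p = 0.0321). The call at 2 Gy and 4 h is lost when any 1 of 5 of the 6 arrays is left out (adjusted p up to 0.171, without parental replicate 2, and called only without parental replicate 1, at 0.0145) and without the 2 narrow arrays (0.129). Without those 2 the difference at 2 Gy and 24 h was 0.10 in place of 0.17.

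Of the transporter, TAP2 was above background on all 24 arrays and TAP1 on 8. For TAP2, parental arrays read 5.16, 5.35 and 5.63 at 0 Gy and 4 h, 4.97, 5.01 and 5.02 at 0 Gy and 24 h, 5.07, 5.22 and 5.34 at 2 Gy and 4 h, and 4.92, 5.36 and 5.42 at 2 Gy and 24 h. Knockout arrays read 5.44, 5.98 and 6.10, then 5.41, 5.51 and 5.62, then 5.73, 5.87 and 6.19, and 5.45, 5.62 and 5.63. All knockout arrays lay above the parental ones except at 0 Gy and 4 h, where 1 knockout array read within the parental range. The difference was 0.72 (SE 0.17, adjusted p = 0.00361) at 2 Gy and 4 h, a 1.65-fold higher signal, and it was called whichever array was left out (adjusted p up to 0.041). At 0 Gy and 24 h it was 0.51 (adjusted p = 0.0494), a call that is lost when any of the 6 arrays is left out (adjusted p from 0.0627 to 0.174). At 0 Gy and 4 h it was 0.46 (adjusted p = 0.0853) and was called without parental replicate 3 (0.046) or knockout replicate 1 (0.0136). The smallest difference, at 2 Gy and 24 h, was 0.34 (95% interval -0.02 to 0.69, adjusted p = 0.263) and not called. Without the 2 narrow arrays it was 0.43 and not called either.

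TAP1 was above background on 3 parental and 5 knockout arrays. Its signals ranged from 2.87 to 3.80 in parental and from 3.08 to 3.95 in knockout arrays, and no group had it above background on all 3 arrays. The average difference of 0.23 (95% interval 0.03 to 0.43, adjusted p = 0.0852) is one between signals near the background level. It was called when any 1 of 4 arrays was left out (replicate 3 of parental cells at 0 Gy and 4 h, replicate 1 of the same cells at 0 Gy and 24 h, and in the knockout line replicate 3 at 0 Gy and 24 h and replicate 2 at 2 Gy and 24 h), at adjusted p from 0.0272 to 0.0494.

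TAPBP, the tapasin gene, was also higher in knockout cells. Parental arrays read 6.49, 6.53 and 6.61 at 0 Gy and 4 h, 6.42, 6.54 and 6.57 at 0 Gy and 24 h, 6.49, 6.55 and 6.66 at 2 Gy and 4 h, and 6.70, 6.74 and 6.82 at 2 Gy and 24 h. Knockout arrays read 6.70, 6.81 and 6.88, then 6.81, 6.87 and 7.08, then 6.83, 6.92 and 7.08, and 6.73, 6.97 and 7.12. The lines were apart in all conditions but 2 Gy and 24 h, where the parental arrays were at their highest. The difference was 0.41 (SE 0.12, adjusted p = 0.0146) at 0 Gy and 24 h and 0.38 (SE 0.12, adjusted p = 0.0262) at 2 Gy and 4 h, and it was 0.25 and 0.18 in the conditions without a call. The 24 h call is lost without parental replicate 1 (0.0767) or knockout replicate 1 (0.119). The 4 h call is lost when replicate 1 or 3 of the parental cells, or replicate 1 or 2 of the knockout, is left out (0.0558 to 0.145).

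NLRC5, which drives transcription of class I genes, was not called in any condition. It lay between 4.39 and 5.20 in parental arrays (median 4.57) and between 4.30 and 4.96 in knockout arrays (median 4.68). The average difference was -0.03, with a 95% interval of -0.21 to 0.16 (adjusted p = 0.876). Without the 2 narrow arrays it was 0.03, and the difference at 2 Gy and 4 h went from 0.06 to 0.25.

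Arrays of 1 condition whose values do not overlap between the lines can be set beside the same share over all genes. Without irradiation 4 of 8 members were apart and higher in knockout cells at 4 h (HLA-C, HLA-E, B2M and TAPBP; 12.8% of all genes) and 4 at 24 h (HLA-E, B2M, TAP2 and TAPBP; 13.7%). After 2 Gy it was 5 at 4 h (HLA-E, B2M, TAP1, TAP2 and TAPBP; 12.3%) and 2 at 24 h (HLA-E and TAP2; 12.7%). No member was apart and lower in any condition.

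Irradiation with 2 Gy called no class I gene in either line at either time. In parental cells 0.226% of all genes were called at 4 h and 0.0678% at 24 h, in knockout cells 0%, so few genes of any kind passed this test. The members' differences lay between -0.17 and 0.29 in parental cells at 4 h and between -0.01 and 0.38 at 24 h. In knockout cells they lay between -0.22 and 0.30 at 4 h and between 0.02 and 0.21 at 24 h. The lowest adjusted p-values of a member were 0.809, 0.688, 1.00 and 0.999. In parental cells at 24 h, TAPBP (0.25, 95% interval 0.01 to 0.48) and NLRC5 (0.38) had an unadjusted p below 0.05, and no member had one in the other responses. NLRC5 read above the mean of its unirradiated group by 0.29 (95% interval -0.08 to 0.67), 0.38 (0.00 to 0.75), 0.30 (-0.08 to 0.67) and 0.21 (-0.17 to 0.58) in the 4 responses, none of them called. Changes of up to 0.75 on the log2 scale remain within the 95% intervals of the members.

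**Figure D3:**
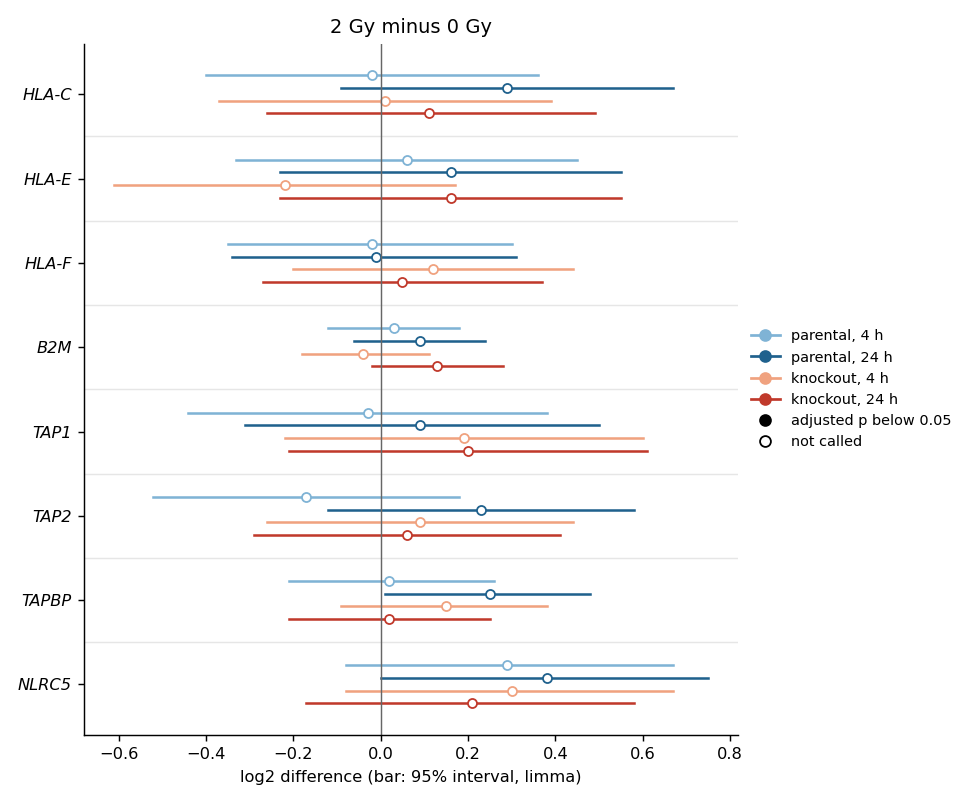
Log2 difference between 2 Gy and 0 Gy (x axis) of each class I gene (y axis) in parental (blue) and knockout (orange and red) cells at 4 h and 24 h, with 95% intervals from limma. All points are open, as no response had an adjusted p below 0.05, and they lie between -0.22 and 0.38.

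No member's response to 2 Gy was called different between the lines. At 4 h the members' differences of response, knockout minus parental, ran from -0.28 (HLA-E) to 0.26 (TAP2), and at 24 h from -0.23 (TAPBP) to 0.10 (TAP1), each with an adjusted p of 1.00. Of all genes, 0% were called at either time. No member had an unadjusted p below 0.05.

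Time in culture called no member either. From 4 h to 24 h, the difference of TAP2 was -0.38 (95% interval -0.73 to -0.03, adjusted p = 1.00) in parental cells at 0 Gy and -0.36 (-0.71 to -0.01, adjusted p = 0.613) in knockout cells at 2 Gy. HLA-E differed by -0.40 (-0.79 to -0.01, adjusted p = 0.722) in knockout cells at 0 Gy, and its time change there differed from that of parental cells by -0.58 (-1.13 to -0.03, adjusted p = 1.00). These 4 values had an unadjusted p below 0.05 and none passed the adjusted threshold. Of all genes, 0% were called with time at 0 Gy in either line. At 2 Gy, 0.695% were called in parental cells (0.645% higher and 0.0509% lower) and 0.0452% in knockout cells, all of the latter higher.

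Genes around the class I pathway moved in part. Among 8 measured class I-like genes, 4 were higher in knockout cells on average and 0 lower, beside 15.8% and 14.6% of all genes. PROCR, the endothelial protein C receptor, was higher by 1.92 (SE 0.07, adjusted p = 1.29e-20) and FCGRT, the neonatal Fc receptor, which also pairs with B2M, by 0.67 (SE 0.07, adjusted p = 3.09e-09). Both were called in all 4 conditions, as were 3.54% of all genes in the upward direction. MR1, which presents vitamin metabolites, was higher by 0.28 and CD1D, which presents lipids, by 0.20, both called on average but in no single condition. HLA-G read 6.44 in both lines and was not called (95% interval of the difference -0.16 to 0.16, limma adjusted p = 0.994). HLA-L was not called either (0.18, adjusted p = 0.0612).

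The proteasome list gave 1 call among 8 measured genes, beside 30.4% of all genes called in either direction. PSME1, a subunit of the PA28 activator, was higher by 0.43 (adjusted p = 1.56e-05). The inducible catalytic subunits were not called. PSMB8 differed by -0.08, PSMB9, which lies next to TAP1, by 0.07 and PSMB10 by -0.09, and PSMB8 and PSMB9 were, like TAP1, near background.

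Of 12 measured loading chaperones and trimming peptidases, 2 were higher and 2 lower, near the 15.8% and 14.6% of all genes. ERAP1, which trims peptides to the length class I binds, was higher by 0.48 (SE 0.06, adjusted p = 1.57e-07). ERAP2, its relative, differed by 0.32 but was above background on no array. PDIA3, which works with tapasin in the loading complex, fell by 0.14, and BLMH, a cytosolic peptidase, fell by 0.23.

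Among 18 regulators of class I transcription, 1 was higher and 2 lower, beside 15.8% and 14.6% of all genes. IRF2, a factor that binds IRF sites, was higher by 0.71 (SE 0.09, adjusted p = 1.14e-07), from 3.97 ± 0.25 (SD, n = 12) in parental to 4.68 ± 0.21 (SD, n = 12) in knockout arrays, and was called in 3 of the 4 conditions. RFXANK, a subunit of the RFX complex on the X box, fell by 0.22 and REL, an NF-kB subunit, by 0.19. Of 17 interferon receptor and signalling genes, 5 were higher and 2 lower, beside the same shares of all genes. IFNGR1, a chain of the interferon gamma receptor, was higher by 0.37 and STAT3 by 0.46, both in all 4 conditions, as were 3.54% of all genes. USP18, an interferon-induced brake on its receptor, was higher by 0.48 and IFNAR2 by 0.35, while JAK2 fell by 0.45 and IFNLR1 by 0.34. By condition, USP18 was called in 2 of the 4, IFNAR2 and JAK2 in 1 each, and IFNLR1, RFXANK and REL in none.

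Of 13 measured class II genes 0 were higher and 3 lower, beside 15.8% and 14.6% of all genes. HLA-DPB1 read 5.93 ± 0.16 (SD, n = 12) in parental and 4.36 ± 0.33 (SD, n = 12) in knockout arrays, a difference of -1.57 (SE 0.10, adjusted p = 1.26e-14) called in all 4 conditions. In the downward direction 2.84% of all genes were called in all 4. HLA-DPA1 fell by 0.26 and HLA-DRB5, which was near background, by 0.25.

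Ligands of natural killer cells were measured for all 14 listed genes, of which 7 were higher on average and 2 lower, beside 15.8% and 14.6% of all genes. The stress ligands ULBP3 (1.17), MICB (0.79) and ULBP2 (0.78), which bind the activating receptor NKG2D, were higher in all 4 conditions, as was NECTIN2 (1.00), a ligand of DNAM-1. NCR3LG1 (B7-H6), a ligand of NKp30, fell by 0.96 on average and was called in all 4 conditions. Of all genes, 3.54% were called higher and 2.84% lower in all 4 conditions. CD58, an adhesion ligand, was higher by 0.54, PVR by 0.28 and MICA by 0.17, and ULBP1 was called only at 0 Gy and 24 h (0.66). HLA-E, the ligand of the inhibitory receptor NKG2A, was higher in the same line as ULBP3, MICB, ULBP2 and NECTIN2, while NCR3LG1 was lower there. In the 12 comparisons of dose, time and their differences between lines, none of the genes on these 7 lists was called.

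**Figure D4:**
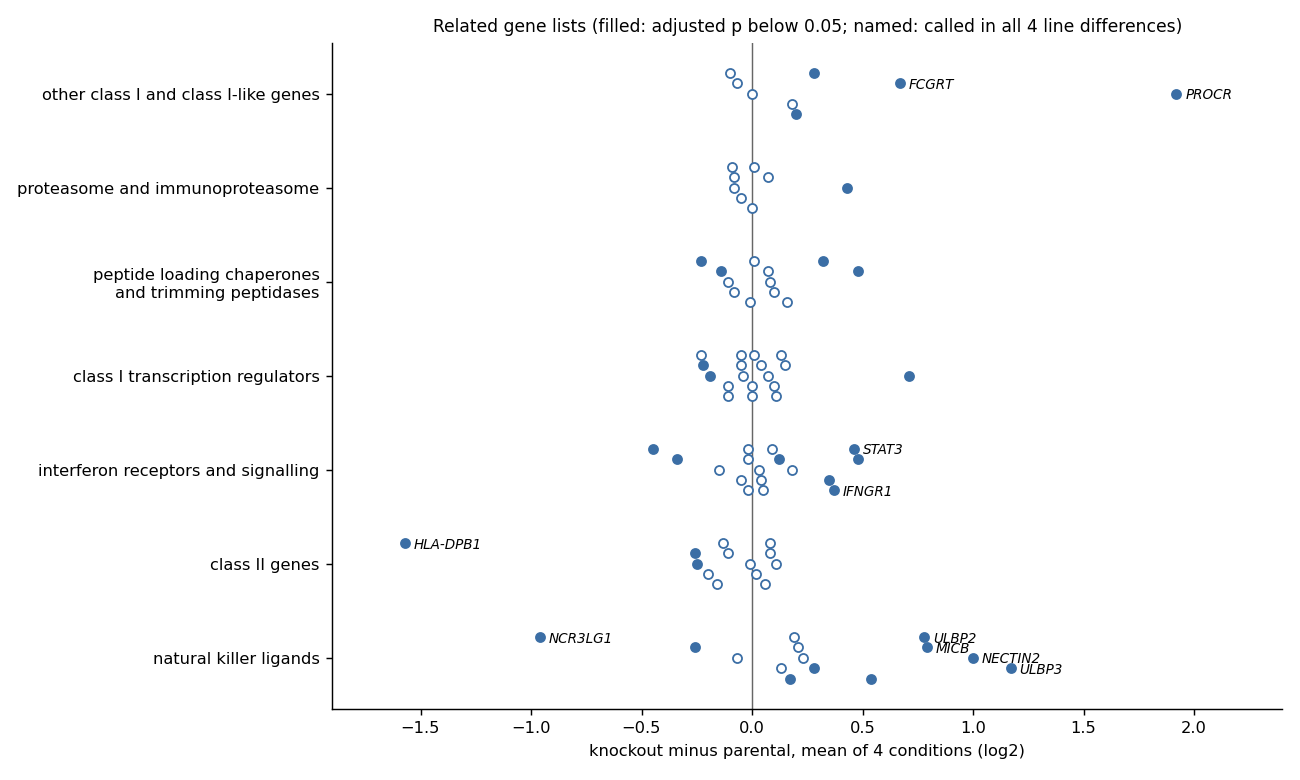
Average knockout minus parental log2 difference (x axis) of every measured gene of 7 lists around the class I pathway (y axis; points are spread vertically only to separate them). Filled points have an adjusted p below 0.05 and names mark genes called in all 4 line differences, with PROCR at 1.92 and HLA-DPB1 at -1.57 farthest out.

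HLA-C, HLA-E, HLA-F, TAP1, TAP2 and TAPBP lie in the MHC on chromosome 6, B2M on chromosome 15 and NLRC5 on chromosome 16. In the stretch of 120 measured genes from 10 before HLA-F to 10 after TAPBP, 114 are not members, and of these 15 were higher and 13 lower in knockout cells, with a median of -0.04, and these shares are near the 15.8% and 14.6% of all genes. Near HLA-E (10 genes on either side) 4 were higher (NRM, TUBB, FLOT1 and IER3) and 5 lower, among them ATAT1. Near HLA-C only MICA and MICB were higher and none was lower. The 20 neighbours of TAP2 held 0 higher and 4 lower genes, with a median of -0.11, while TAP2 was higher by 0.51. Around TAPBP 5 were higher and 3 lower, and around B2M 3 were higher and 2 lower. NLRC5 lay beside a run of higher genes, 9 of its 20 neighbours, 6 of them metallothionein genes (MT1B, MT1F, MT1G, MT1H, MT1IP and MT1X, which are close in sequence), while NLRC5 itself was not called.

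**Figure D5:**
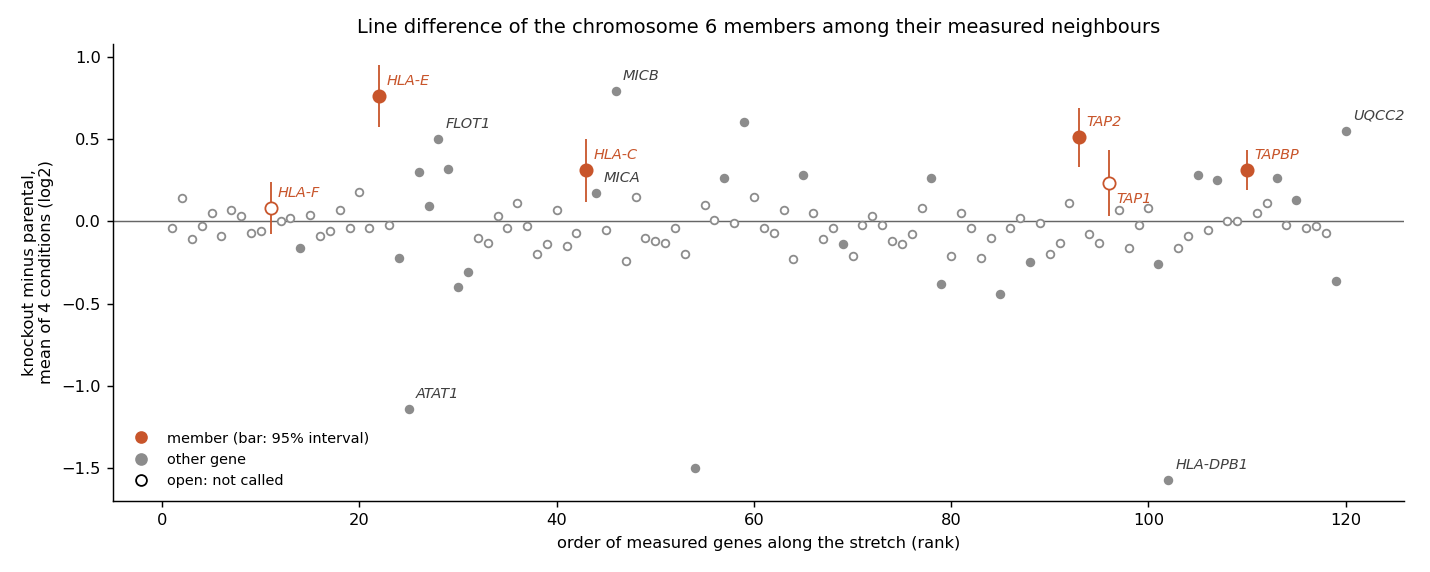
Average knockout minus parental log2 difference (y axis) of 120 measured genes in their order along chromosome 6 (x axis, rank), with 6 class I members in orange (bars: 95% intervals) and the other genes in grey; filled points have an adjusted p below 0.05. HLA-E, HLA-C, TAP2 and TAPBP are filled and above 0 among neighbours whose median is -0.04.

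Over the 24 arrays the members followed each other to differing degrees, which is given as a description, as the arrays share the line difference. The highest Pearson correlations were those of HLA-E with B2M (0.77) and TAP2 (0.76) and of HLA-C with B2M (0.70). Within groups, with each group's mean removed, HLA-C and B2M still went together (0.66), whereas HLA-E and B2M did not (0.15). The replicate number was not removed, and HLA-C read lowest in replicate 2 in every group, as B2M did in most. How much of the 0.66 comes from a shift shared by same-numbered arrays was not tested. NLRC5 correlated with HLA-C at -0.45 and with B2M at -0.53 within groups, the lowest values among all pairs of members. Its signal was highest in replicate 2 in some groups, and a shift shared by same-numbered arrays was not removed here either. Among 3983 genes outside the list, those most like a member over 24 arrays were GPR3 (0.90), HK1 and LRRC27 (0.89 each) for HLA-E, ARHGAP18 (0.88), NAGK (0.87) and ARRDC4 (0.86) for B2M, and KALRN, ZYX and SMAGP (0.88 each) for TAPBP. For TAP2 they were TIMP4 (0.85), CLIP1 and COX15 (0.84 each), and for HLA-C ACYP2 (0.84), FAM50A (0.82) and NHEJ1 (0.81). All 15 were higher in knockout cells on average, by 0.35 (ZYX) to 1.85 (SMAGP). The choice favours this direction, as the members they follow were themselves called higher there.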

How the data were processed

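RNA of 24 samples was measured on Affymetrix whole-transcript arrays. The authors deposited a table of log2 signals with a row for each probe set. RMA and Affymetrix Expression Console 1.1 are the tools in the submitters' processing notes; the build behind the annotation was not given in the sources used here. Of 24351 probe sets, 17709 had 1 gene symbol, none had several, 2903 were controls and 3739 others were unnamed; for 20 genes with several probe sets the one of highest mean was kept, leaving 17687 genes. No dim genes were left out. limma 3.58.1 in R 4.3.3 (lmFit, eBayes with an intensity trend) was fitted with 1 mean per group over all 24 arrays for 17 comparisons, two-sided, with Benjamini-Hochberg adjustment over all genes and calls below 0.05. The fit was tested on simulated data. Precision is limited by the number of arrays: over all genes, the 95% interval for 1 group against another reached a median of 0.31 to either side. Members and lists were chosen with earlier results of these data known. From the lists, genes called in all 4 line differences and up to 4 others with the largest called change are named; neighbours are the 10 measured genes on either side in RefSeq gene order, and likeness is the Pearson correlation over 24 arrays among genes spanning at least 0.5 between group means. Same-numbered arrays deviated together (every correlation above 0.1) in the line differences at 0 Gy 4 h (0.103 to 0.168) and 2 Gy 24 h (0.151 to 0.231) and in the knockout responses at 4 h (0.154 to 0.269) and 24 h (0.134 to 0.237); replicate numbers come from the titles. The alternatives tried include this block, array weights, other normalization, a filter on dim genes and leaving out arrays.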

Additional observations from a re-analysis of the deposited data

How the results depend on the processing

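The number of members called higher in knockout cells changed as follows. At 0 Gy and 4 h (2 called) it was 4 with a replicate block, with all arrays or with the compared arrays only (the latter added after seeing the data), 3 with array weights (TAP2 added), and 2 to 3 when 1 array was left out. At 0 Gy and 24 h (2 called) it was 3, with HLA-E added, with a replicate block, array weights, without dim genes and with the compared arrays only, and 0 to 2 when 1 array was left out. At 2 Gy and 4 h (4 called) it was 5 with a replicate block, 3 with array weights, without an intensity trend, after a further quantile normalization or without the 2 narrow arrays, 2 with the compared arrays only, and 2 to 3 when 1 array was left out. At 2 Gy and 24 h (0 called) it was 2 with a replicate block, on all or on the compared arrays, 1 with array weights, with a further quantile normalization, with centred arrays, without dim genes and with the compared arrays only, and 0 when any 1 array was left out. On average over the conditions (5 called) it was 4 without the 2 narrow arrays, 6 with array weights, and 5 to 6 when 1 array was left out. In the other 12 comparisons 0 members were called under every alternative run.

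Of 13 calls of a member in a comparison, 126 of 133 values under the alternatives other than leaving out 1 array kept direction and call, and 151 of 168 with 1 array left out; the others lost the call and kept their direction. Of the differences not called, 22 of 1347 values became calls under the former and 7 of 984 with 1 array left out. No called value changed sign. Values that were called neither way did so in 25 of the 1347 and 79 of the 984, HLA-C at 2 Gy and 24 h among them (-0.02 without the 2 narrow arrays). Where same-numbered arrays did not all correlate above 0.1 over all genes, the replicate block added HLA-E at 0 Gy and 24 h (adjusted p = 0.0418, limma) and HLA-C at 2 Gy and 4 h (0.0206). Beside the calls given here and in the results, it changed no other call. B2M at 2 Gy and 4 h also missed the threshold with array weights (0.106), without the intensity trend (0.132) and after a further quantile normalization (0.0506). The cause of these changes was not tested.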
